A study of Homo sapiens with 6 samples.

Results

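E2F transcription factors, DNA replication genes and recombination repair genes were followed across an RBM10 knockdown series. The group holds 48 genes, listed by gene symbol with earlier results of these data known, out of 26334 gene symbols in the deposited tables. The filter on low counts left 14217 of these symbols. All 48 passed that filter. The RNA came from untreated PC-9 cells, an established human lung adenocarcinoma line with an EGFR exon 19 deletion, grown in RPMI with 10% FBS. The cells carried a scrambled control shRNA (shScr) or one of 2 shRNAs against the splicing factor RBM10, named shRBM10#1 and shRBM10#2. Each of these 3 conditions has 2 libraries, 6 in all. The labels name shScr as the control, as the published results do, whereas the published methods name parental cells, and the labels were followed. Nothing in the labels says that the libraries of a condition came from separate cultures, so p-values measure the spread between these libraries, which may be technical.

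E2F proteins bind the promoters of genes needed to copy DNA, and the RB protein restrains them until cyclin-dependent kinases inactivate it at the end of G1 phase. E2F1, E2F2 and E2F3 are activators, whereas E2F7 and E2F8 are repressors that are themselves made late in this wave. The targets assemble the replication fork: ORC, CDC6 and CDT1 load the MCM ring onto origins, CDC45 and the GINS complex turn it into an active helicase, and polymerases with their clamp and clamp loader follow it. Recombination repair genes such as BRCA2 protect and restart forks, and proliferating cells make most of these RNAs around S phase. In bulk RNA, more cells in S phase and more RNA per cell cannot be told apart.

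The promoters are shown first because E2F gives the group its name. These 6 had the smallest p-values against shScr among members whose promoter window was found and held an E2F motif. Capitals mark the motif, and each run reads 5′ to 3′ on the gene's strand, from RefSeq promoter windows on GRCh38.p14.
TYMS, chr18:657603-657632, plus strand: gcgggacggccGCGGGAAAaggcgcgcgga
GINS2, chr16:85688967-85688996, minus strand: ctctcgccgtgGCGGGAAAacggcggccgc
MCM7, chr7:100101388-100101417, minus strand: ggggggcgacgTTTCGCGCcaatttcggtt
CDC45, chr22:19479884-19479913, plus strand: aggagccgtgaTTTGGCGGgagtcttgacc
MCM10, chr10:13161552-13161581, plus strand: ccggttggaatTTTGGCGGgttcagctgtg
PCNA, chr20:5126623-5126772, minus strand: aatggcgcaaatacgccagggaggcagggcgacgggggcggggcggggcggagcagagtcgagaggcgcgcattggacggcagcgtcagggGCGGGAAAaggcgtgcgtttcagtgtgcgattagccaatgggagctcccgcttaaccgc
The motif began 39 bases upstream of the RefSeq start in TYMS, 31 in GINS2, 9 in MCM7, 25 in CDC45 and 59 in PCNA, and lay downstream of the start, from base 6, in MCM10. Longer GENCODE transcripts begin further upstream, so that the runs of TYMS, GINS2, MCM7, CDC45 and MCM10 lie almost wholly in an annotated exon of that set. In TYMS, GINS2 and PCNA the same 8 letters, GCGGGAAA, were read, which are TTTCCCGC on the other strand, followed by another a in each gene.

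Motifs were searched on both strands in windows from 250 bases before to 50 bases after each RefSeq start. The E2F motifs were TTTGGCGC, TTTCGCGC, TTTCCCGC, TTTGGCGG and TTTCCCGG. They share letters, and a window with several of them was counted once. Windows were found for 42 of the 48 members, and 24 of the 42 members (57.1%) held an E2F motif against 1003 of 10481 genes tested (9.57%). CCNE2, MCM4, MCM5, E2F8, RPA2 and FANCI had no window and were not searched. By window, the share was 45.6% of 57 member windows, 7.05% of the windows of genes tested and 4.77% of all 35116 windows of the table. A CCAAT box was present in 61.4% of member windows, 34.2% of the windows of genes tested and 34.6% of all windows. The short CHR motif TTTGAA of mitotic genes was present in 3.51%, 10.4% and 15.2% of these windows. Among members with a window, 6 of the 13 that were higher with shRBM10#2 (46.2%) held an E2F motif, as did 17 of the 27 that were not called (63%). These matches are descriptions of letters, not of bound sites.

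The libraries held 31953729 to 37557507 expected counts. The members took 0.4615% and 0.4889% of these for shScr, 0.4918% and 0.4686% for shRBM10#1, and 0.5189% and 0.5168% for shRBM10#2. Levels are given as CPM, a gene's counts scaled to a common library size with TMM factors, and levels of different genes are compared as TPM, which is per length. The targeted gene, RBM10, was measured at 83.2 and 86.2 CPM with shScr, 59.8 and 56.4 with shRBM10#1, and 27.2 and 26.9 with shRBM10#2. Its log2 fold change was -0.54 ± 0.07 (SE, FDR = 0.000228) with shRBM10#1 and -1.65 ± 0.07 (FDR = 5.1e-08) with shRBM10#2, and the shRNAs differed by -1.11 ± 0.07 (FDR = 3.65e-06). FDR here and below is the Benjamini-Hochberg adjusted p of edgeR's quasi-likelihood test over all 14217 genes, and a gene with an FDR below 0.05 is called higher or lower. The mean fragment length was 231.2 nt in shScr replicate 2 and 264.8 to 281.2 nt in the other 5 libraries. The epithelial markers EPCAM, CDH1, KRT7, KRT8, KRT18 and KRT19 summed to between 22790 and 28963 TPM, whereas NKX2-1, NAPSA and SFTPB, which mark the lung lineage, had mean levels below 1 TPM. The immune markers PTPRC, CD3E and ITGAM were below 1 TPM and CD68 was not, and the fibroblast markers summed to at most 2.96 TPM.

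With shRBM10#2, 17 of the 48 genes were higher than with shScr and 2 were lower (FDR below 0.05), and none changed by more than 1 on the log2 scale. DESeq2 called 15 members in this comparison, and 22.1% of all genes. Over all genes, edgeR called 12% higher and 13.9% lower in this comparison, and 1.3% were called with a log2 fold change beyond 1. With shRBM10#1, no member was higher and 2 were lower, where the shares of all genes were 7.13% and 6.91%. The members' median log2 fold change was 0.06 for shRBM10#1 and 0.14 for shRBM10#2, beside 0.01 for all genes in either comparison. In the contrast of shRBM10#2 with shRBM10#1, 10 members were higher and 4 lower, with a member median of 0.12, where 11% of all genes were higher and 14.5% lower. Both shRNA comparisons share the shScr libraries. The members' values in the shRBM10#2 libraries lay wholly above those of the shScr libraries for 28 genes and wholly below for 8, and over all genes these shares were 33.6% and 33%.

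**Figure D1:**
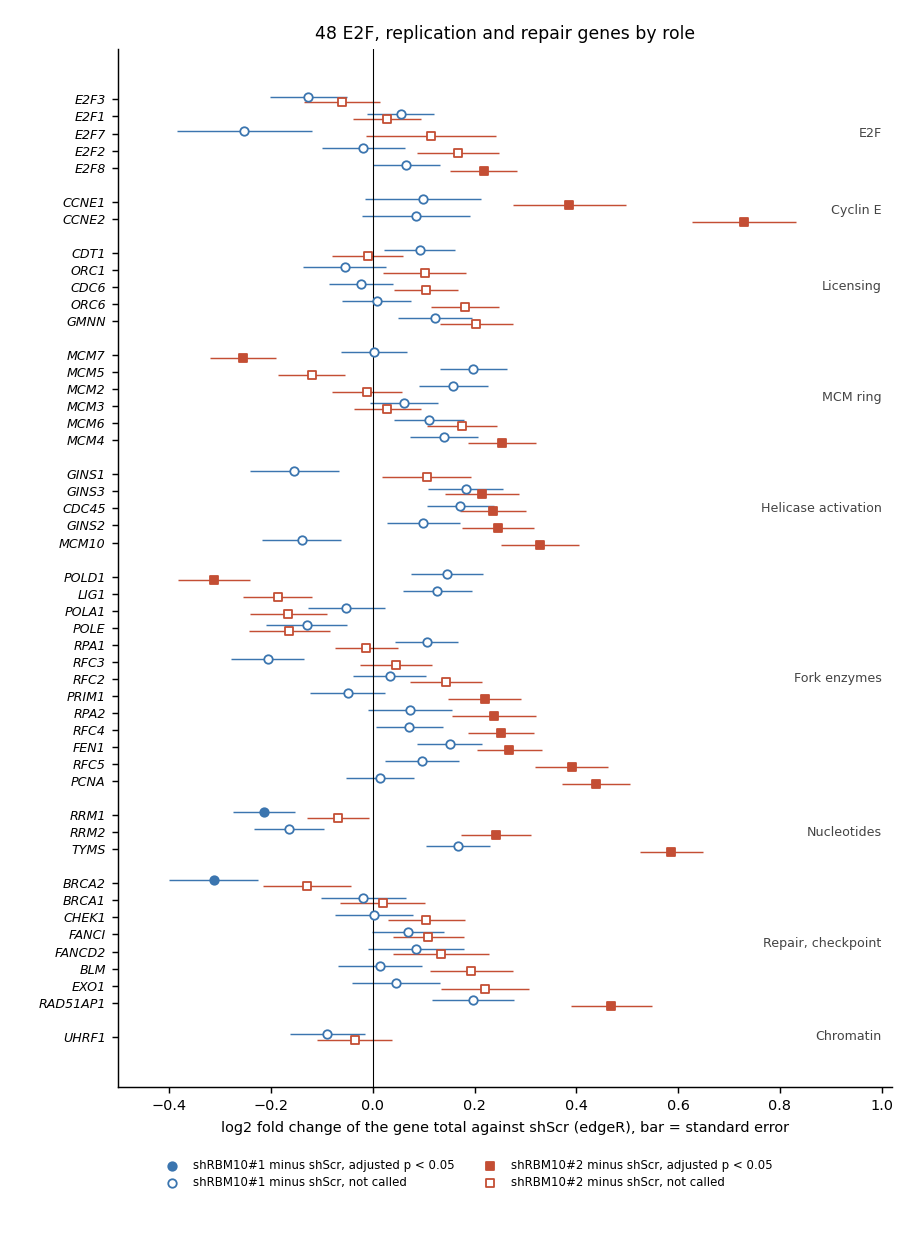
Log2 fold change of each of the 48 gene totals against shScr on the horizontal axis, with its standard error, by role group, for shRBM10#1 (circles) and shRBM10#2 (squares); filled symbols have an FDR below 0.05. The 17 filled squares to the right of 0 run from E2F8, GINS3, PRIM1 and CDC45 near 0.2 to CCNE2 at 0.73, and MCM7 and POLD1 are filled squares on the left.

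Of the 5 E2F factors, E2F8 alone was called against shScr, higher with shRBM10#2, where 12% of all genes were higher and 13.9% lower. E2F1, the best known activator and the E2F with the highest level (50.4 ± 6.97 TPM with shScr, SD, n = 2), was measured at 77.3 and 82.5 CPM with shScr, 83.8 and 82.2 with shRBM10#1, and 83.6 and 79.4 with shRBM10#2. Its log2 fold change with shRBM10#2 was 0.03 ± 0.07 (SE, FDR = 0.795), and the 3 conditions overlap. E2F8, a repressor of the same targets, was measured at 70.4 and 66.0 CPM with shScr, 71.7 and 71.1 with shRBM10#1, and 80.2 and 78.5 with shRBM10#2. Both shRBM10#2 libraries stood above the other 4, and E2F8 rose by 0.22 ± 0.07 on the log2 scale (FDR = 0.0282). With shRBM10#1 its log2 fold change was 0.07 ± 0.07 (FDR = 0.553). In a fit with an offset for GC content, given below, E2F8 was not called with shRBM10#2 (0.18, FDR = 0.0658). E2F2 was called there (0.25, FDR = 0.0483). E2F2, E2F3 and the repressor E2F7 were not called in any of the 3 comparisons, with log2 fold changes of 0.17, -0.06 and 0.11 with shRBM10#2 and -0.02, -0.13 and -0.25 with shRBM10#1.

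Both cyclin E genes rose with shRBM10#2. Cyclin E binds CDK2 and drives the entry into S phase. CCNE2 was measured at 16.6 and 20.4 CPM with shScr, 18.4 and 20.8 with shRBM10#1, and 31.3 and 30.04 with shRBM10#2. The shRBM10#2 libraries stood clear of the other 4, and the rise of 0.73 ± 0.10 on the log2 scale (65.9%, FDR = 0.000598) was the largest of the 48. CCNE1 was measured at 8.96 and 8.48 CPM with shScr, 9.97 and 8.74 with shRBM10#1, and 11.2 and 11.6 with shRBM10#2, a rise of 0.39 ± 0.11 (FDR = 0.0232) that DESeq2 did not call (adjusted p = 0.0563). Against shRBM10#1, CCNE2 was higher by 0.65 ± 0.10 (FDR = 0.001), and CCNE1 by 0.29 ± 0.11, which was not called (FDR = 0.0739). CCNE2 shares 1629 exonic bases with INTS8 on the opposite strand. The strand of the libraries is not given, and INTS8 itself had a log2 fold change of 0.14 (FDR = 0.13) with shRBM10#2.

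No gene of origin recognition and licensing was called in any comparison. These genes mark origins and load the MCM ring in G1 phase. GMNN, the inhibitor of CDT1, had the smallest p of the group, with 47.5 and 44.7 CPM with shScr, 48.4 and 52.0 with shRBM10#1, and 52.1 and 54.1 with shRBM10#2, a log2 fold change of 0.20 ± 0.07 with shRBM10#2 (FDR = 0.0536). CDT1, the loading factor that GMNN restrains and the group's most abundant RNA (93.02 ± 2.52 TPM with shScr), was measured at 154 and 140 CPM with shScr, 159 and 154 with shRBM10#1, and 140 and 152 with shRBM10#2. Its log2 fold change with shRBM10#2 was -0.01 ± 0.07 (FDR = 0.934). ORC1, ORC6 and CDC6 had log2 fold changes of 0.10, 0.18 and 0.11 with shRBM10#2 and of -0.06, 0.01 and -0.02 with shRBM10#1.

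The 6 subunits of the MCM ring are needed in equal number. With shRBM10#2 MCM4 rose and MCM7 fell, 16.7% of the 6 each, near the 12% and 13.9% of all genes. MCM4 was measured at 207 and 219 CPM with shScr, 245 and 225 with shRBM10#1, and 256 and 253 with shRBM10#2, and rose by 0.25 ± 0.07 on the log2 scale (FDR = 0.0152). MCM7, the ring's most abundant RNA (295 ± 33.7 TPM with shScr), was measured at 520 and 535 CPM with shScr, 550 and 506 with shRBM10#1, and 443 and 441 with shRBM10#2. It fell by 0.25 ± 0.06 with shRBM10#2 (FDR = 0.0133), a call lost in a fit with an offset for GC content (-0.17, FDR = 0.104), and had a log2 fold change of 0.00 ± 0.06 with shRBM10#1. The shRBM10#2 libraries lay above the other 4 for MCM4 and below the other 4 for MCM7. MCM5 was measured at 145 and 151 CPM with shScr, 177 and 162 with shRBM10#1, and 134 and 138 with shRBM10#2. MCM5 was not called against shScr (0.20 ± 0.07, FDR = 0.0647 with shRBM10#1, and -0.12 ± 0.07, FDR = 0.205 with shRBM10#2), but differed between the shRNAs by -0.32 ± 0.07 (FDR = 0.00461), as did MCM7 by -0.26 ± 0.06 (FDR = 0.0126). MCM2, MCM3 and MCM6 had log2 fold changes of -0.01, 0.03 and 0.18 with shRBM10#2 and 0.16, 0.06 and 0.11 with shRBM10#1, none of them called. Summed over the ring, CPM reached 96.8% and 98.2% of the shScr mean for shRBM10#2, and 111% and 102% for shRBM10#1. MCM7 shares 392 exonic bases with AP4M1 on the opposite strand.

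Genes that activate the helicase rose with shRBM10#2 in 4 of 5 cases, beside 12% of all genes, and in 3 of 5 with the GC offset, without GINS3. CDC45, part of the active helicase, was measured at 55.3 and 54.9 CPM with shScr, 63.1 and 61.0 with shRBM10#1, and 65.1 and 64.6 with shRBM10#2. Its log2 fold change was 0.24 ± 0.07 with shRBM10#2 (FDR = 0.0191) and 0.17 ± 0.07 with shRBM10#1 (FDR = 0.102), and all 4 knockdown libraries stood above both shScr libraries. GINS2, the group's most abundant RNA (62.6 ± 5.49 TPM with shScr), was measured at 37.2 and 38.2 CPM with shScr, 40.0 and 40.7 with shRBM10#1, and 43.2 and 46.2 with shRBM10#2, a rise of 0.25 ± 0.07 (FDR = 0.0229). GINS3 was measured at 29.8 and 30.5, 33.8 and 34.6, and 33.8 and 36.1 CPM in the same order, a rise of 0.22 ± 0.07 with shRBM10#2 (FDR = 0.0458). For both GINS genes the 4 knockdown libraries stood above shScr. The fourth was MCM10, which joins the helicase to the polymerases. MCM10 was measured at 31.5 and 33.8 CPM with shScr, 31.1 and 28.3 with shRBM10#1, and 41.3 and 40.8 with shRBM10#2. It rose by 0.33 ± 0.08 with shRBM10#2 (FDR = 0.00811), had a log2 fold change of -0.14 ± 0.08 with shRBM10#1 (FDR = 0.265), and differed between the shRNAs by 0.47 ± 0.08 (FDR = 0.00123). GINS1 was measured at 50.2 and 60.8 CPM with shScr, 51.7 and 48.1 with shRBM10#1, and 60.1 and 59.3 with shRBM10#2. The shScr libraries of GINS1 span those of shRBM10#2, and it was called only between the shRNAs (0.26 ± 0.09, FDR = 0.0441).

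**Figure D2:**
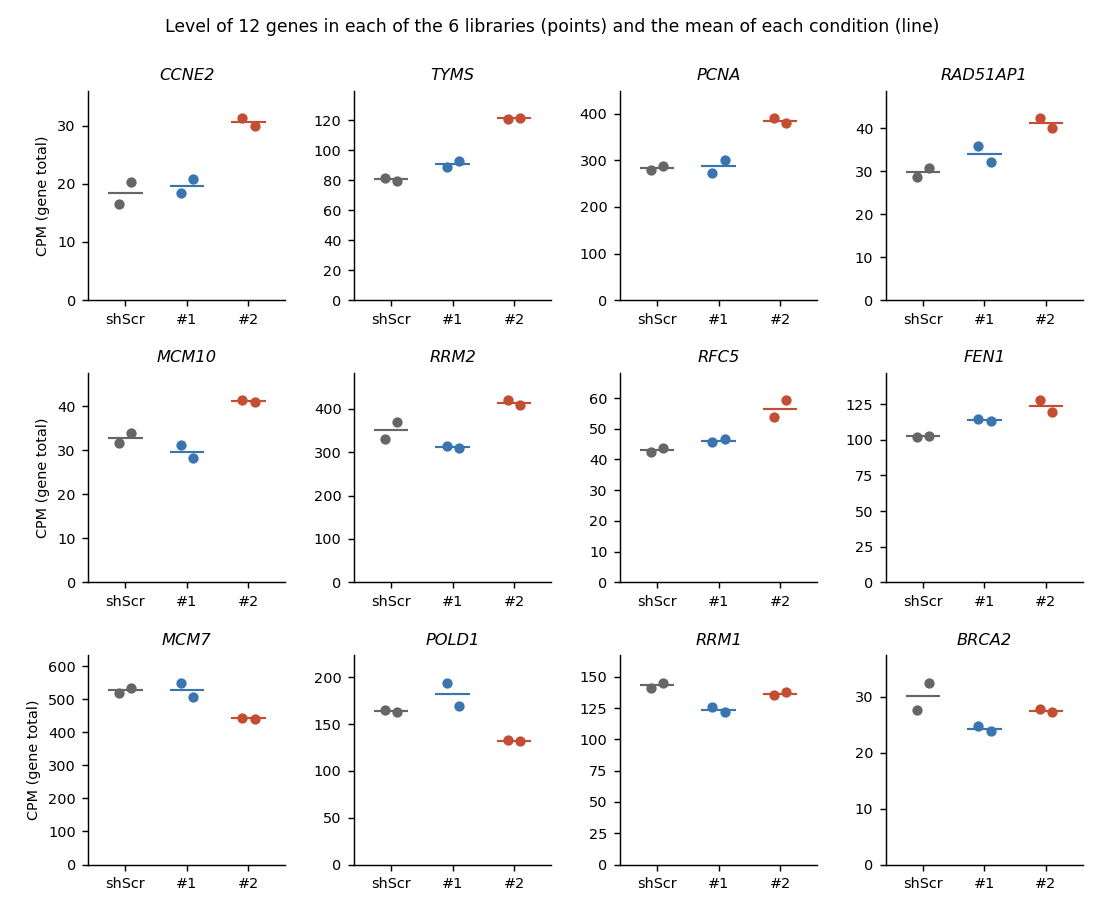
CPM of 12 genes in each of the 6 libraries (points; the line is the mean of the 2 libraries of a condition), with axes from 0. The shRBM10#2 points of CCNE2, TYMS, PCNA, MCM10 and RFC5 stand apart from the other 4 libraries, those of MCM7 and POLD1 lie below the others, and RRM1 is lowest with shRBM10#1.

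Among the 13 polymerase, clamp, clamp loader and Okazaki processing genes, 6 rose with shRBM10#2 and 1 fell, beside 12% and 13.9% of all genes. With the GC offset 3 rose, PCNA, RFC5 and FEN1, and the 1 that fell was POLA1 in place of POLD1. PCNA, the sliding clamp and the most abundant of all 48 RNAs (411 ± 39.7 TPM with shScr), was measured at 280 and 289 CPM with shScr, 274 and 300 with shRBM10#1, and 391 and 380 with shRBM10#2. Its rise was 0.44 ± 0.07 on the log2 scale (35.6%, FDR = 0.000846) with shRBM10#2, beside 0.01 ± 0.07 (FDR = 0.917) with shRBM10#1. The clamp is opened by the RFC complex, and its subunits did not move as one. RFC5 was measured at 42.5 and 43.7 CPM with shScr, 45.6 and 46.6 with shRBM10#1, and 53.8 and 59.2 with shRBM10#2, a rise of 0.39 ± 0.07 (FDR = 0.00246). RFC4 was measured at 58.6 and 58.0 CPM with shScr, 62.6 and 59.9 with shRBM10#1, and 68.8 and 70.0 with shRBM10#2, a rise of 0.25 ± 0.07 (FDR = 0.0145). RFC3 was measured at 49.2 and 50.8 CPM with shScr, 45.1 and 41.6 with shRBM10#1, and 50.8 and 52.4 with shRBM10#2. RFC3 was therefore lowest with shRBM10#1 and was called only between the shRNAs (0.25 ± 0.07, FDR = 0.0204), and RFC2 was not called (0.14 ± 0.07 with shRBM10#2). RFC5 shares 186 exonic bases with WSB2 on the opposite strand, FEN1 shares 166 with TMEM258, and named pseudogenes exist for PCNA, RFC3, RFC5, FEN1 and RPA2, among which reads could be split.

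None of the 3 catalytic polymerase subunits was called higher. POLD1, of polymerase delta, was measured at 165 and 163 CPM with shScr, 194 and 169 with shRBM10#1, and 133 and 132 with shRBM10#2. It fell by 0.31 ± 0.07 on the log2 scale with shRBM10#2 (FDR = 0.00775), had a log2 fold change of 0.15 ± 0.07 with shRBM10#1 (FDR = 0.2), and differed between the shRNAs by -0.46 ± 0.07 (FDR = 0.000967). POLA1 and POLE, of polymerases alpha and epsilon, had log2 fold changes of -0.17 and -0.16 with shRBM10#2 (FDR = 0.126 and 0.148) and of -0.05 and -0.13 with shRBM10#1. PRIM1, the primase that starts each Okazaki fragment, was measured at 30.6 and 31.6 CPM with shScr, 30.9 and 29.3 with shRBM10#1, and 36.1 and 36.4 with shRBM10#2, a rise of 0.22 ± 0.07 (FDR = 0.0398). It shares 132 exonic bases with HSD17B6 on the opposite strand and 33 with NACA on the same strand. NACA itself was called higher with shRBM10#2 (0.28, FDR = 0.00951). FEN1, the flap nuclease that trims the fragments, was measured at 102 and 103 CPM with shScr, 114 and 113 with shRBM10#1, and 128 and 119 with shRBM10#2. All 4 knockdown libraries of FEN1 lay above shScr, with a rise of 0.27 ± 0.06 with shRBM10#2 (FDR = 0.00876) and a log2 fold change of 0.15 ± 0.06 with shRBM10#1 that was not called (FDR = 0.137). LIG1, which seals the fragments, was measured at 112 and 124 CPM with shScr, 130 and 127 with shRBM10#1, and 106 and 101 with shRBM10#2. LIG1 was not called against shScr (-0.19 ± 0.07, FDR = 0.061 with shRBM10#2) and differed between the shRNAs by -0.31 ± 0.07 (FDR = 0.0057). Of the single-strand binding proteins, RPA2 was measured at 25.3 and 22.5 CPM with shScr, 25.6 and 24.7 with shRBM10#1, and 27.95 and 28.4 with shRBM10#2, a rise of 0.24 ± 0.08 (FDR = 0.049). RPA1 had a log2 fold change of -0.01 with shRBM10#2 and 0.11 with shRBM10#1, neither called.

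Of the 3 genes of nucleotide supply, TYMS and RRM2 rose with shRBM10#2 and RRM1 fell with shRBM10#1. TYMS, thymidylate synthase, was measured at 81.7 and 79.7 CPM with shScr, 88.9 and 92.5 with shRBM10#1, and 121 and 121 with shRBM10#2. TYMS had the smallest p of all 48 genes, with a rise of 0.59 ± 0.06 on the log2 scale with shRBM10#2 (50.2%, FDR = 0.000117). With shRBM10#1 the log2 fold change was 0.17 ± 0.06 (FDR = 0.0965), and the shRNAs differed by 0.42 ± 0.06 (FDR = 0.000744). RRM1 and RRM2 are the large and small subunit of ribonucleotide reductase. RRM2 was measured at 330 and 371 CPM with shScr, 315 and 310 with shRBM10#1, and 420 and 409 with shRBM10#2. RRM2 rose by 0.24 ± 0.07 with shRBM10#2 (FDR = 0.0225), had a log2 fold change of -0.16 ± 0.07 with shRBM10#1 (FDR = 0.137), and differed between the shRNAs by 0.41 ± 0.07 (FDR = 0.00156). RRM1 was measured at 141 and 145 CPM with shScr, 126 and 122 with shRBM10#1, and 136 and 138 with shRBM10#2. RRM1 fell by 0.21 ± 0.06 with shRBM10#1 (FDR = 0.0342) and had a log2 fold change of -0.07 ± 0.06 with shRBM10#2 (FDR = 0.441). That fall of RRM1 was called in 6 of 16 alternatives, and not without shScr replicate 2, the library of shorter fragments (-0.19). Nor was it called in a fit to only the 4 libraries compared, where the shRBM10#2 libraries do not enter the spread. That fit called 0 members with shRBM10#1, and 9.87% of all genes. TYMS shares 967 exonic bases with ENOSF1 on the opposite strand, and ENOSF1 was measured at 19.6 to 20.9 CPM in the 6 libraries. Named pseudogenes exist for TYMS and RRM2, as they do for E2F3, RAD51AP1 and FANCD2, so reads of these genes may be split.

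**Figure D3:**
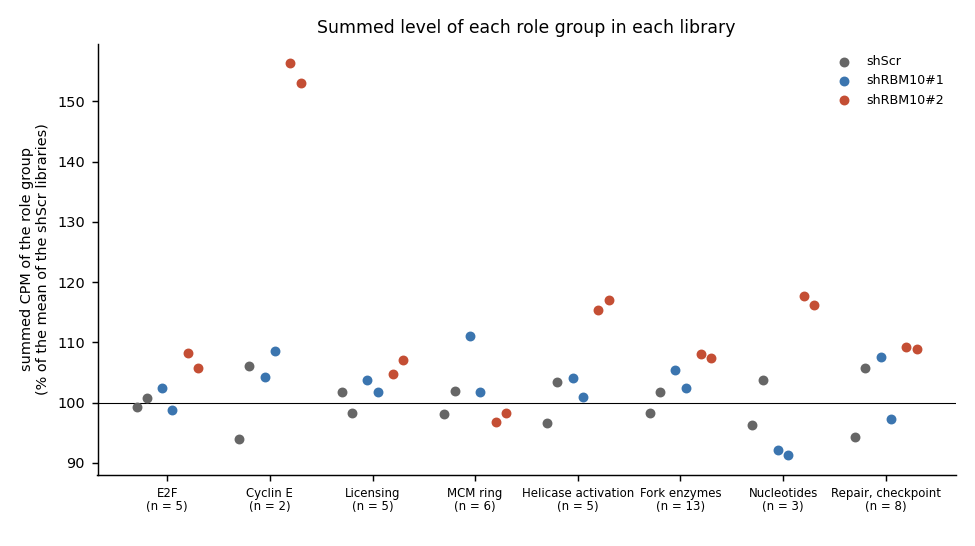
Summed CPM of each role group in each library, as a percent of the mean of the shScr libraries (vertical axis, which does not start at 0), with 2 points per condition. The cyclin E pair reached 156% and 153% with shRBM10#2, helicase activation 115% and 117%, and nucleotide supply 118% and 116%, while the MCM ring stayed between 96.8% and 98.2%.

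The 8 recombination repair and checkpoint genes were taken apart from the replication genes, of which 16 of 39 rose and 2 fell with shRBM10#2. In the repair group 1 of 8 rose with shRBM10#2, close to the 12% of all genes, and the group median was 0.12 beside 0.17 for the replication genes, a difference that was not tested. RAD51AP1, which promotes recombination repair, was measured at 28.6 and 30.8 CPM with shScr, 36.0 and 32.2 with shRBM10#1, and 42.3 and 40.0 with shRBM10#2. It rose by 0.47 ± 0.08 with shRBM10#2 (38.4%, FDR = 0.00168), and its log2 fold change with shRBM10#1 was 0.20 ± 0.08 (FDR = 0.131). BRCA2, which is needed for recombination repair and fork protection, was measured at 27.7 and 32.5 CPM with shScr, 24.7 and 23.8 with shRBM10#1, and 27.8 and 27.3 with shRBM10#2. Both shRBM10#1 libraries were below both shScr libraries, and BRCA2 fell by 0.31 ± 0.09 with shRBM10#1 (FDR = 0.032). With shRBM10#2 its log2 fold change was -0.13 ± 0.09 (FDR = 0.3). The fall of BRCA2 with shRBM10#1 was called in 10 of 16 alternatives. It was not called without shScr replicate 2 (-0.19), nor in the fit to only the 4 libraries compared. FANCI, the group's most abundant RNA (63.7 ± 11.7 TPM with shScr), was measured at 174 and 196 CPM with shScr, 199 and 190 with shRBM10#1, and 199 and 200 with shRBM10#2, with a log2 fold change of 0.11 ± 0.07 (FDR = 0.278) with shRBM10#2. BRCA1, FANCD2, BLM, EXO1 and the checkpoint kinase gene CHEK1 had log2 fold changes of 0.02, 0.13, 0.19, 0.22 and 0.10 with shRBM10#2, and the lowest and highest with shRBM10#1 were -0.02 and 0.09, none called. UHRF1, which maintains DNA methylation behind the fork, was measured at 116 and 122 CPM with shScr, 120 and 104 with shRBM10#1, and 118 and 114 with shRBM10#2, with a log2 fold change of -0.04 ± 0.07 (FDR = 0.763).

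With both shRNAs taken as one group against shScr, no member was called by edgeR, where 1.62% of all genes were. At an unadjusted p under 0.05 there were 6 members, RAD51AP1, TYMS, CDC45, FEN1, GINS3 and MCM4, each with a positive log2 fold change, beside 2450 of all 14217 genes, a larger share than among the members. DESeq2 called 0 members, where it called 5.05% of all genes. RAD51AP1 had the smallest FDR, at 0.34 ± 0.12 on the log2 scale (FDR = 0.182). This group holds libraries that differ in 14 members, and RBM10 itself was not called in it (-0.99 ± 0.31, FDR = 0.146). When each condition kept its own coefficient and the mean of the shRNAs was set against shScr, 9 members were called, all higher, where 18.4% of all genes were called, a share close to that of the members.

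Fold changes with shRBM10#2 followed GC content over all genes, and the members were read against that. Of all genes in the lowest quartile of GC content (31.1% to 43.1%), 24.4% were called higher and 3.3% lower, and in the highest quartile (57.8% to 75.96%) 3.55% were higher and 26.8% lower. The members lie low in this range, with a median of 46.4% beside 50.04% for all genes. In the lowest quartile 4 of 15 members rose, close to the 24.4% of all genes there. In the second quartile 10 of 16 members rose against 12.8% of all genes, and in the third 3 of 10 against 7.6%. Both members that fell, MCM7 (58.1% GC) and POLD1 (64.8%), are in the highest quartile, where 2 of 7 members fell and none rose. With shRBM10#1 the medians of all genes ran from -0.01 in the lowest to 0.06 in the highest quartile.

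**Figure D4:**
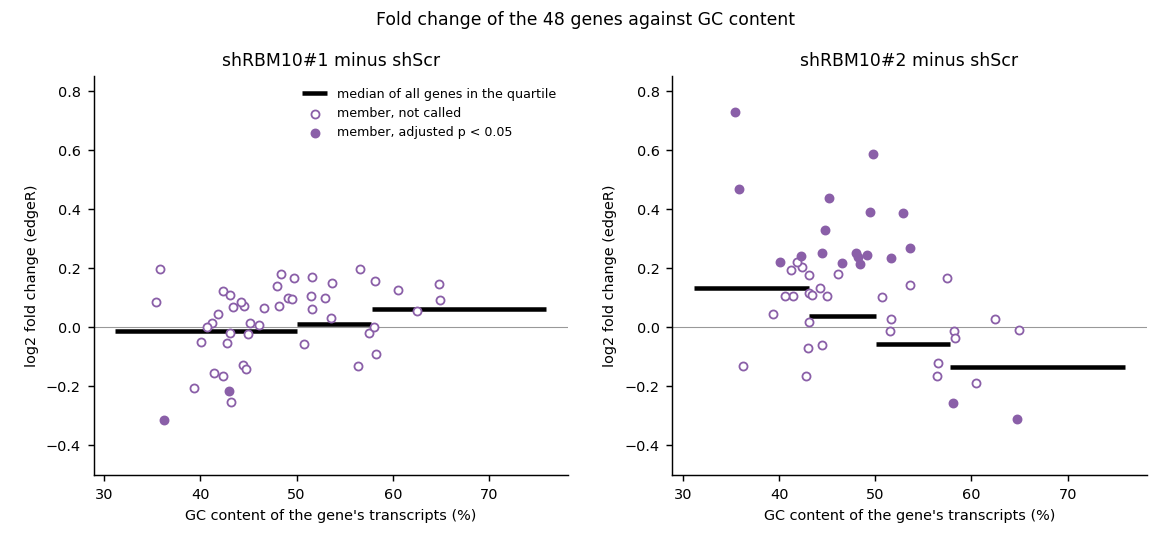
Log2 fold change of the 48 genes (points, filled where the FDR is below 0.05) against the GC content of their transcripts in percent, for shRBM10#1 (left) and shRBM10#2 (right), with the median of all genes in each GC quartile as a bar. With shRBM10#2 the bars step down from 0.13 to -0.13, and most filled points between 43.1% and 50.04% GC stand well above the bar of their quartile.

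A fit with an offset for GC content in each library, chosen after the data were seen, gave 12 members higher and 2 lower with shRBM10#2, where 8.39% of all genes were higher and 10.7% lower. CCNE1, CCNE2, MCM4, CDC45, GINS2, MCM10, PCNA, RFC5, FEN1, TYMS and RAD51AP1 were called higher in both fits. TYMS kept its value, at 0.59 on the log2 scale (FDR = 0.000245), whereas CCNE2 went from 0.73 to 0.52 (FDR = 0.00289) and RAD51AP1 from 0.47 to 0.27 (FDR = 0.0347). E2F2 was called higher with the offset alone (0.25, FDR = 0.0483). The falls of MCM7 (-0.17, FDR = 0.104) and POLD1 (-0.19, FDR = 0.087) were not called with the offset, and POLA1 (-0.25, FDR = 0.0282) and BRCA2 (-0.32, FDR = 0.014) were. Of the 6 that were no longer called, E2F8, GINS3, RFC4 and RPA2 had values of 0.18, 0.20, 0.19 and 0.22 and FDRs of 0.0658, 0.0614, 0.0586 and 0.0745. PRIM1 went from 0.22 to 0.09 (FDR = 0.377) and RRM2 from 0.24 to 0.15 (FDR = 0.14). With shRBM10#1 the offset left BRCA2 alone called, where 7.17% of all genes were higher and 7.05% lower, and RRM1 had an FDR of 0.051. Between the shRNAs it left 7 members higher, E2F2, CCNE2, MCM10, PCNA, RFC5, RRM2 and TYMS, and 2 lower, MCM5 and POLD1, where 5.43% of all genes were higher and 9.05% lower. The member median was 0.10 with shRBM10#2 and 0.05 with shRBM10#1 in this fit.

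**Figure D5:**
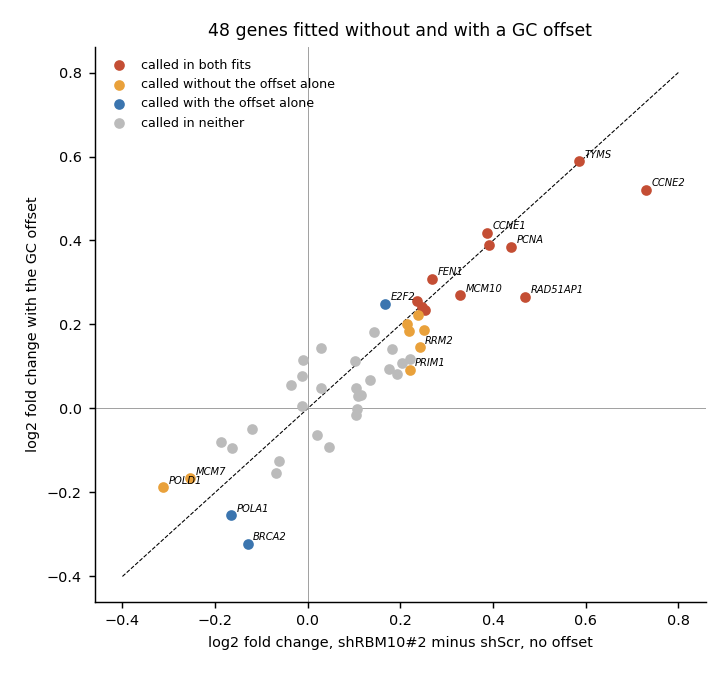
Log2 fold change of the 48 genes, shRBM10#2 minus shScr, without (horizontal) and with (vertical) the GC offset; colors give the fits in which a gene had an FDR below 0.05, and the dashed line marks equal values. TYMS lies on the line, CCNE2 and RAD51AP1 lie below it, and BRCA2 and POLA1 are called with the offset alone.

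Leaving out libraries showed which members the counts rest on. The 19 calls with shRBM10#2 became 5 without shRBM10#2 replicate 1 and 4 without shRBM10#2 replicate 2, with 8.44% and 6.6% of all genes called, and each of these fits assumes that the lone library varies like the others. Without shScr replicate 1 there were 12 calls, and without shScr replicate 2 there were 10, with 15.2% and 16.4% of all genes called. Without shRBM10#1 replicate 1 there were 26, and without shRBM10#1 replicate 2 there were 26 as well, with 31.3% and 31.5% of all genes called. CCNE2, PCNA, TYMS and RAD51AP1 were called higher with shRBM10#2 in all 16 alternatives that kept the FDR threshold of 0.05 and set no fold limit, including each library left out. RFC5 was called in 15, FEN1 in 14 and MCM10 in 13 of the 16.

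Isoform usage was compared because RBM10 is a splicing factor. For 29 members at least 2 isoforms passed the filter, and the other 19 have 1. Neither shRNA gave a member with an FDR below 0.05 by edgeR's diffSpliceDGE, where 0.172% of 6405 genes were called with shRBM10#1 and 2.75% with shRBM10#2. At an unadjusted p under 0.05 there were 0 members with shRBM10#1 and 2 with shRBM10#2, where 6.17% and 10.4% of all genes were, shares above those of the members. For RRM2 (FDR = 0.264) the minor isoform NM_001165931 held 13.3% and 14.0% of the gene's counts with shScr, 11.8% and 12.1% with shRBM10#1, and 11.2% and 8.85% with shRBM10#2. For E2F3 (FDR = 0.475) NM_001243076 held 59.2% and 43.4% with shScr, 52.0% and 61.6% with shRBM10#1, and 69.9% and 68.5% with shRBM10#2. The shScr libraries of E2F3 were thus further apart than the shRBM10#2 libraries were from the nearer of them. limma's diffSplice called 3 members with shRBM10#2, E2F3, FANCI and UHRF1. The share of all genes called by limma was not recorded, so that count cannot be set against a background.

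Other genes of the pathway were taken from a list of 86 genes that holds none of the members. Of these, 0 rose and 2 fell with shRBM10#1, and 19 rose and 10 fell with shRBM10#2, with medians of -0.01 and 0.12. Over all genes 7.13% and 6.91% were called higher and lower with shRBM10#1, and 12% and 13.9% with shRBM10#2. With the GC offset 8 rose and 5 fell with shRBM10#2, near or below the 8.39% and 10.7% of all genes. CDKN1A, which encodes the cyclin-dependent kinase inhibitor p21 upstream of RB and E2F, was measured at 34.6 and 36.4 CPM with shScr, 16.3 and 21.2 with shRBM10#1, and 22.2 and 19.3 with shRBM10#2. All 4 knockdown libraries lay below both shScr libraries, and CDKN1A fell by 0.92 ± 0.11 on the log2 scale with shRBM10#1 (FDR = 0.000218) and by 0.77 ± 0.11 with shRBM10#2 (FDR = 0.000643). It was the one gene of the 86 called with both shRNAs as one group (-0.84 ± 0.12, FDR = 0.0195). Of the 18 RB and E2F regulators in the list, 4 rose with shRBM10#2 (E2F6, RB1, LIN9 and LIN52) and 2 fell (CCND1 and CDKN1A). With the GC offset LIN9 and LIN52 stayed higher, and CCND1 and CDKN1A stayed lower. FANCC, of the Fanconi anemia core complex, was measured at 44.4 and 42.9 CPM with shScr, 38.1 and 34.1 with shRBM10#1, and 38.9 and 39.6 with shRBM10#2, and fell by 0.27 ± 0.08 with shRBM10#1 (FDR = 0.0291).

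With shRBM10#2 the smallest p-values of the list after CDKN1A belonged to DUT, SLBP and POLD2. DUT, which removes dUTP and feeds thymidylate synthesis, rose by 0.44 ± 0.07 (FDR = 0.000928), from 121 and 119 CPM to 161 and 165. SLBP, which binds histone mRNA, rose by 0.42 ± 0.07 (FDR = 0.00142), from 73.2 and 65.4 CPM to 92.3 and 93.2. POLD2, the partner of POLD1 in polymerase delta, fell by 0.41 ± 0.07 (FDR = 0.00162), from 236 and 230 CPM to 173 and 177. POLD3, another subunit of polymerase delta, went the other way and rose by 0.25 ± 0.08 (FDR = 0.0312), from 40.8 and 44.7 CPM to 48.5 and 53.1. With the GC offset POLD2 stayed called (-0.31, FDR = 0.0117) and POLD3 did not (0.17, FDR = 0.127). Between the shRNAs RMI1, LIN9, MCM8 and RB1 were higher with shRBM10#2, by 0.44, 0.42, 0.40 and 0.36 on the log2 scale (FDR = 0.00135, 0.00209, 0.0022 and 0.00263). With the GC offset RMI1, LIN9 and MCM8 stayed called and RB1 did not. Of 12 mitotic genes kept for comparison, 2 rose with shRBM10#2 (16.7%) and none fell, beside 12% and 13.9% of all genes. Those that rose were CDK1, by 0.60 ± 0.06 (FDR = 9.23e-05), and CCNB2, and the median of the 12 was 0.02. With the GC offset CDK1 and CCNB2 stayed higher and BUB1B was called lower, beside 8.39% and 10.7% of all genes. CDK1, the mitotic kinase, was measured at 219 and 216 CPM with shScr, 227 and 237 with shRBM10#1, and 332 and 329 with shRBM10#2.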

How the data were processed

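The 48 members and the role and pathway lists were chosen with earlier results of these data known. Per the labels, the authors' processing used STAR 2.4, RSEM 1.2.29, edgeR and hg19. The methods give RSEM for quantifying isoforms and edgeR for their differential expression, and leave the roles of STAR and hg19 unstated. The authors deposited, per library, expected counts (reads split among isoforms), TPM and effective lengths, an other value in nucleotides, for 51398 isoforms. FPKM and isoform percentages were not used. Strand and read length are not given in the sources used here.

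Expected counts were summed per gene symbol, rounded, filtered with filterByExpr and tested with edgeR 4.0.16 (R 4.3.3, quasi-likelihood, TMM, one coefficient per condition, 6 libraries, two-sided). Genes were called at an FDR below 0.05 over all genes tested. Isoform usage was tested with diffSpliceDGE and Simes p-values. DESeq2 1.42.0 and limma 3.58.1 served as alternatives. GC content came from GENCODE 29 transcripts matched by RefSeq identifier, or by gene symbol for 2 members, and the GC offset from a loess curve (span 0.3) per library. Replicates differed by more than sampling noise, with chi-square per degree of freedom of 3.24 to 12.5. The scripts were tested on simulated data, where changes as small as many of those reported were seldom recovered. Among the calls made there, the share of false ones was above the FDR threshold of 0.05. Far fewer genes were changed in the simulation than were called here with shRBM10#2, so its recovery does not carry over.

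Every member is accounted for. Full values are given for members with an FDR below 0.05 in any of 3 comparisons and, per role, for those with the smallest p and the highest TPM. Of the pathway list, at most 5 called genes per comparison were picked by the smallest p. POLD3 was added beside POLD2, and the other called RB and E2F regulators beside CDKN1A. For isoforms, the 2 smallest usage p-values are given. INTS8, ENOSF1, AP4M1, WSB2, TMEM258, HSD17B6 and NACA were named after the overlaps were seen.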

Additional observations from a re-analysis of the deposited data

Results flagged for a closer look

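For 14 of the 48 members the response to shRBM10#2 differed from the response to shRBM10#1 by edgeR's test of the contrast between the shRNAs. Over all genes, 25.5% were called in that contrast. On the log2 scale, shRBM10#2 minus shRBM10#1, the differences were 0.65 for CCNE2, 0.47 for MCM10, 0.42 for PCNA, 0.42 for TYMS, 0.41 for RRM2, 0.29 for RFC5, 0.27 for RAD51AP1, 0.27 for PRIM1, 0.26 for GINS1 and 0.25 for RFC3. They were -0.46 for POLD1, -0.32 for MCM5, -0.31 for LIG1 and -0.26 for MCM7. RBM10 was itself lower with shRBM10#2 by 1.11 on that scale, so the depth of the knockdown and the shRNA cannot be told apart. With the GC offset, CCNE2, MCM10, PCNA, TYMS, RRM2, RFC5, POLD1 and MCM5 stayed called among these 14. The 14 were picked by their call in this same contrast, so the part that stayed has no background. Of all 48 members, 9 were called with the offset, where 14.5% of all genes were called.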

How the results depend on the processing

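No member changed direction together with a call in 2304 values under the alternatives, of which 135 lost and 48 gained a call. The replicate numbers do not pair the libraries (correlations of deviations -0.00383 to -0.0193). The replicate block gave 1 member called with shRBM10#1, 16 with shRBM10#2 and 14 between the shRNAs, with 12.3%, 22.6% and 22.3% of all genes called. With the effective length offset added to the replicate block these counts were 0, 11 and 10 (9.25%, 17.8% and 17.8% of all genes), and with the GC offset added they were 1, 12 and 8 (12.2%, 15.9% and 11.7%). The GC offset alone left 1 member with shRBM10#1 and 9 between the shRNAs (14.2% and 14.5%). A log2 fold change beyond 1 left 0 members in each comparison, and an FDR below 0.01 left 0, 8 and 8 (6.32%, 11.9% and 12.4%). The fit to 4 libraries gave 0 with shRBM10#1 (9.87%), and the mean of the shRNA coefficients gave 9 in the pooled comparison (18.4%). limma's diffSplice gave 3 members with changed usage with shRBM10#2, a count with no recorded share of all genes beside it.

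Leaving out 1 library at a time gave 0 to 4 members with shRBM10#1, 4 to 26 with shRBM10#2 and 6 to 18 between the shRNAs, where the shares of all genes called ran from 6.78% to 18%, 6.6% to 31.5% and 6.35% to 25.7%. Without shRBM10#1 replicate 2, the 3 members called with shRBM10#1 were higher, and none was among the 2 reported. The member median ranged from -0.00603 (without shScr replicate 1) to 0.0751 with shRBM10#1, 0.10 to 0.19 with shRBM10#2, 0.0767 to 0.16 between the shRNAs and 0.0607 to 0.12 pooled. With the GC offset it was 0.10 with shRBM10#2 and 0.0709 between the shRNAs, and with the replicate block added 0.10 and 0.0712. Members held 247 to 18644 expected counts per library, and each condition has 2 libraries. RBM10 kept its direction and its side of the threshold in every alternative run for it.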
